A study of Rattus norvegicus with 2 samples.

Results

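The signal recognition particle (SRP) and its receptor bring ribosomes that are making secreted and membrane proteins to the endoplasmic reticulum (ER). The rule took every row of the counts named Srp9, Srp14, Srp19, Srp68, Srp72, Srpra or Srprb, or starting with Srp54. It found 7 genes of the 25628 in the table: 6 that encode SRP proteins (Srp9, Srp14, Srp19, Srp54a, Srp68 and Srp72) and Srpra, which encodes the alpha subunit of the receptor. Srprb, the beta subunit, was not analysed here. All 7 genes were among the 11468 with at least 10 counts over both libraries, and none was at 0 in either library.

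P180-GFPbio, the ER protein P180 (RRBP1) fused to a biotin-tagged GFP, or GFPbio, the tagged GFP alone, was pulled down from rat primary cortical neurons, and the RNA that came with it was sequenced (RIP-seq). The comparison asks which mRNAs come down with P180 over those that come down with the tagged GFP. 1 library of each was analysed, called here the P180 library and the GFP library. A difference therefore compares these libraries and has no replicate check, SD or p-value. Wistar is the only rat strain the study's methods name, and there the neurons are hippocampal ones from embryos. No culture of cortical neurons is described, so the age of the animals behind them is not stated. No treatment other than the tagged construct is stated for either group. Neither the day in culture of the cortical neurons nor the way the constructs were brought into them is stated in the labels or the methods.

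SRP is a ribonucleoprotein of the cytosol with an RNA scaffold. Its SRP54 subunit, a GTPase, binds the signal sequence as it leaves the ribosome and then the receptor on the ER membrane, where GTP hydrolysis by both releases the ribosome to the Sec61 translocon. SRP9 and SRP14 form a heterodimer on the Alu domain, which slows elongation, SRP68 and SRP72 form a second heterodimer on the S domain, and SRP19 helps SRP54 to bind the RNA. The SRP proteins themselves are made without a signal sequence. SR alpha, from Srpra, has no signal sequence either and is held at the membrane by SR beta. Much of this was worked out with extracts of dog pancreas.

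There were 6298343 counts in the P180 library, spread over 13407 genes, against 8428358 in the GFP library, spread over 9345 genes. Mitochondrially encoded genes took 7.31% of the P180 library and 16.6% of the GFP library. Rrbp1, the mRNA of the pulled-down protein, was 2.66-fold higher in the P180 library, and EGFP_avitag, the row of the shared tag, stood at 0.470 of its GFP level. All 10 neuronal markers were counted in both libraries, with a summed level of 11398 CPM with P180 (CPM, counts scaled to the same library total) against 11601 CPM with GFP alone. Mapt held 39344 of their 71789 counts with P180, and single markers went either way, with Nefm 3.20-fold higher and Snap25 at 0.495 of its GFP level. Of all 11468 genes with at least 10 counts, 40.6% were at least 2-fold higher with P180, and 2343 were at 0 with GFP alone. The 10 astrocyte markers summed to 5209 CPM with P180 and 1888 CPM with GFP alone, with 7 of 10 at least 2-fold higher and Slc1a2 and Aldh1l1 at 0 in the GFP library. The 8 markers of dividing cells summed to 118 CPM with P180 and 12.6 CPM with GFP alone, with 7 of 8 higher and 5 at 0 in the GFP library, among them Cdk1 and Mki67. The 8 markers of the oligodendrocyte lineage summed to 608 CPM with P180 and 295 CPM with GFP alone, with Mog at 0 in both libraries and Cspg4 at 0.198 of its GFP level. The 6 microglial markers summed to 7.62 CPM with P180 and the 4 endothelial ones to 7.94 CPM, with 3 of each list at 0, and with GFP alone all of both lists were at 0. In such pulled-down RNA, more cells of a type, more RNA per cell and more capture with P180 cannot be told apart. The part of these other cells in the values below was not tested.

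The 7 mRNAs did not move as one set. Srp14, Srp54a and Srpra were more than 2-fold higher in the P180 library, Srp68 was higher by less, and Srp9, Srp72 and Srp19 stood at or below their GFP level. Of the lower genes, Srp9 and Srp72 encode the heterodimer partners of SRP14 and SRP68, whose genes were higher. Srp19 encodes a protein of the S domain, whose other genes fell on both sides. The sides were drawn from these same ratios, so this is a description. Levels are given as CPM with exact 95% Poisson intervals, which cover counting error only. A ratio is P180 over GFP, taken after each count was divided by its library's median-of-ratios size factor (0.846 with P180 and 1.18 with GFP alone), with an exact 95% counting interval.

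Srp14 (ENSRNOG00000007512), a subunit of the Alu domain, had 334 counts with P180 and 174 with GFP alone, or 53.0 CPM (47.5 to 59.0) against 20.6 CPM (17.7 to 24.0). It was 2.68-fold higher (2.23 to 3.24), the highest ratio of the 7, and the only one whose whole interval lay above 2-fold. Srp9 (ENSRNOG00000003211), which encodes the partner of SRP14, had 164 counts with P180 and 250 with GFP alone, or 26.0 CPM (22.2 to 30.3) against 29.7 CPM (26.1 to 33.6). Its ratio was 0.916 (0.748 to 1.12), and this was the only interval of the 7 that held 1. The mRNAs of these partners thus differed in their ratio.

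In the S domain, Srp54a (ENSRNOG00000032776), which encodes the GTPase that reads the signal sequence, had the fewest counts, 122 with P180 and 73 with GFP alone. This was 19.4 CPM (16.1 to 23.1) against 8.66 CPM (6.79 to 10.9), a ratio of 2.33 (1.73 to 3.16). Srp19 (ENSRNOG00000020204), whose protein helps SRP54 onto the particle, had 169 counts with P180 and 320 with GFP alone, or 26.8 CPM (22.9 to 31.2) against 38.0 CPM (33.9 to 42.4). With 0.738 (0.609 to 0.892) it had the lowest ratio of the 7. These S-domain neighbours lay on opposite sides of 1.

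Srp68 (ENSRNOG00000009351) had 155 counts with P180 and 126 with GFP alone, or 24.6 CPM (20.9 to 28.8) against 14.9 CPM (12.5 to 17.8). It was 1.72-fold higher (1.35 to 2.19), short of 2-fold. Srp72 (ENSRNOG00000002100), which encodes its partner, had 386 counts with P180 and 666 with GFP alone. It stood at 61.3 CPM (55.3 to 67.7) against 79.0 CPM (73.1 to 85.3), a ratio of 0.810 (0.712 to 0.919). This second heterodimer was thus divided in the same way as SRP9 and SRP14.

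Srpra (ENSRNOG00000010543), which encodes the receptor subunit that binds SRP54, had 301 counts with P180 and 201 with GFP alone. It stood at 47.8 CPM (42.5 to 53.5) against 23.8 CPM (20.7 to 27.4), and was 2.09-fold higher (1.74 to 2.51). The receptor gene thus lay with Srp54a and Srp14, within the range of the single SRP genes. It lay above the 6 SRP genes taken as a sum, with a log2 ratio of 1.06 (0.80 to 1.33) against 0.21 (0.10 to 0.31). In that sum Srp72 weighs most, with 386 of 1330 counts with P180 and 666 of 1609 with GFP alone.

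**Figure D1:**
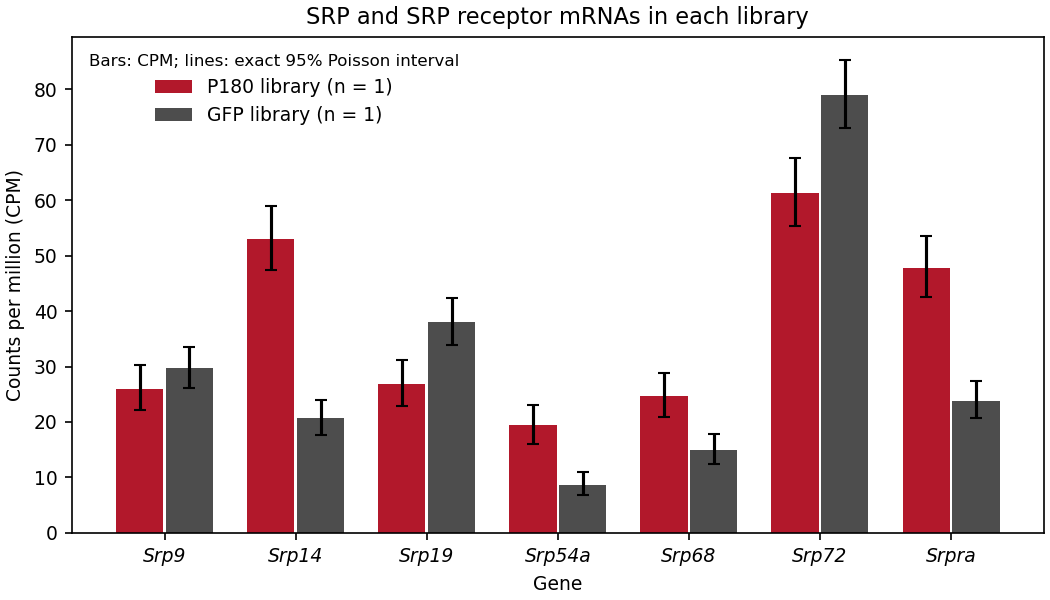
Level of each of the 7 mRNAs in CPM, with P180 (red, left) and with GFP alone (grey, right), with exact 95% Poisson intervals and 1 library each. Srp14, Srp54a, Srp68 and Srpra are higher in the P180 library, Srp14 with 53.0 against 20.6 CPM, whereas Srp19 and Srp72 are lower there and the intervals of Srp9 overlap.

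The share of higher genes among the 7 was read against that of all genes. Srp14, Srp54a and Srpra, 3 of the 7, were at least 2-fold higher with P180, where 40.6% of all 11468 genes were. Their share thus lay near that of all genes, which include genes at 0 with GFP alone, unlike the 7. At least 2-fold lower were 0 of the 7, where 19.9% of all genes were. Of the 11468 genes, 120 were at 0 with P180, far fewer than with GFP alone. All 7 genes were also among the 6578 counted in each library whose scaled counts averaged 100 or more. Of those, 21.5% were at least 2-fold higher and 22.9% at least 2-fold lower, beside the same 3 and 0 of 7. The median log2 ratio of the 7, with 1 scaled count added to each library, was 0.78, beside 0.45 over all genes and -0.05 over those 6578. For the 6 SRP genes without Srpra the median was 0.33.

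Ranked by ratio, Srp14 lay above 64.8% of the 11468 genes and above 85.5% of the 6578, and Srp19 above 30.6% and 37.9%. Between them were 3914 of the 11468 genes (34.1%) and 3128 of the 6578 (47.6%). Srp54a lay above 82.3%, Srpra above 79.6% and Srp68 above 73.9% of the 6578. Srp9 lay above 47.7% and Srp72 above 42.1%, nearer to Srp19 than to Srp14. Taken as 1 sum, the 7 genes held 1631 counts with P180 and 1810 with GFP alone, or 259 against 215 CPM, with a log2 ratio of 0.33 (0.23 to 0.43).

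**Figure D2:**
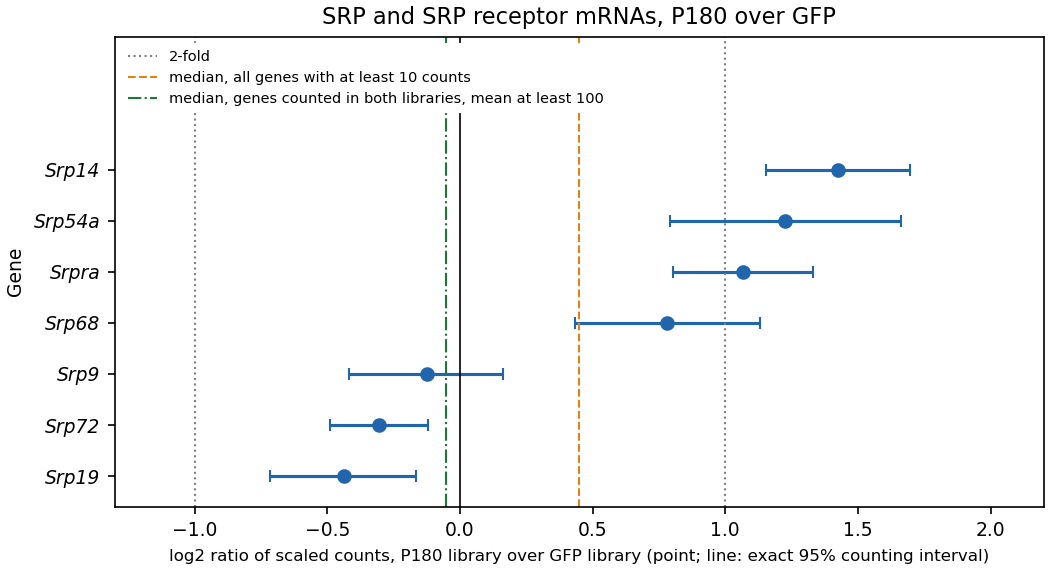
Log2 ratio of scaled counts, P180 library over GFP library, of the 7 genes with exact 95% counting intervals. The vertical lines mark equal levels, 2-fold in either direction (dotted), and the median of all genes (0.45) and of genes counted in both libraries with a mean of at least 100 (-0.05). Srp14, Srp54a and Srpra lie past 2-fold, and Srp72 and Srp19 lie below 0 with their whole interval.

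The differences between members do not depend on how the libraries are scaled, since scaling moves all genes alike. Of the 21 pairs of members, 13 differed in log2 ratio by more than counting error, with an exact 95% interval of the difference that excluded 0, and 8 did not. Pairs of other genes were not counted in this way, so nothing particular to the SRP genes is read from that number. Srp14 minus Srp9 was 1.55 (1.15 to 1.95) on the log2 scale, and Srp68 minus Srp72 was 1.09 (0.69 to 1.48). For Srp54a minus Srp19 the difference was 1.66 (1.14 to 2.18). The widest gap was Srp14 minus Srp19, 1.86 (1.47 to 2.25).

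Among the 4 genes above a log2 ratio of 0, and among the 3 below it, neighbours in the order could not be told apart at this depth. Srp14 minus Srp54a was 0.20 (-0.32 to 0.71), Srp54a minus Srpra 0.16 (-0.35 to 0.67) and Srpra minus Srp68 0.28 (-0.16 to 0.72). Among the lower genes, Srp9 minus Srp72 was 0.18 (-0.17 to 0.52) and Srp72 minus Srp19 was 0.13 (-0.20 to 0.47). Across the 4 higher genes, Srp14 minus Srp68 was 0.64 (0.19 to 1.09). The higher and lower genes were told apart by these same ratios, so the differences between them are a description.

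The make-up of the counts of the 7 genes gives the same data as shares, which sum to the whole, so that a higher share of one gene lowers those of the others. Srp14 took 20.5% of them with P180 (18.5 to 22.5, exact 95% binomial interval) and 9.61% with GFP alone (8.29 to 11.1). Srpra took 18.5% (16.6 to 20.4) and 11.1% (9.69 to 12.6), and Srp54a 7.48% (6.25 to 8.87) and 4.03% (3.17 to 5.04). Srp72 took 23.7% with P180 (21.6 to 25.8) against 36.8% with GFP alone (34.6 to 39.1), and Srp19 took 10.4% (8.92 to 11.9) against 17.7% (15.9 to 19.5). Srp9 took 10.1% (8.64 to 11.6) against 13.8% (12.3 to 15.5), although its own ratio could not be told from 1. Srp68 took 9.50% against 6.96%, with intervals that overlapped, although its own ratio lay above 1.

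**Figure D3:**
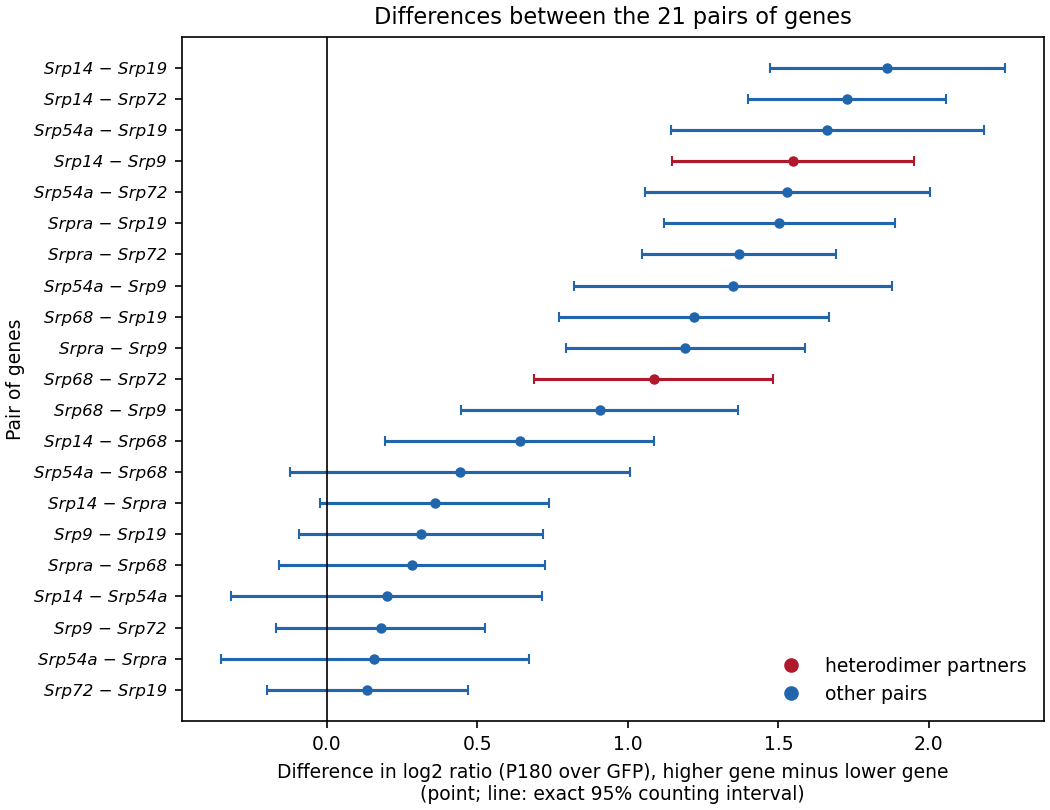
Difference in log2 ratio between the 2 genes of each of the 21 pairs, written as the higher gene minus the lower one, with exact 95% counting intervals. Red marks the heterodimer partners, Srp14 with Srp9 (1.55) and Srp68 with Srp72 (1.09), both clear of 0, and the 8 intervals at the bottom hold 0.

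Some limits of counting apply to single members. RefSeq (assembly GRCr8) lists a further copy of Srp14 (Srp14l1), 2 of Srp19 (Srp19-ps1 and Srp19-ps2) and 1 of Srp72 (Srp72-ps1), and reads that fit several places equally well were discarded, so their counts are less certain. Copies were sought by symbol only, in an assembly other than the mRatBN7 used for counting, so others may exist. In RefSeq, loci of Srp54a, Srp68 and Srp72 overlap other annotated genes, and the counting is not stated to use strand. None of these copies or overlapping genes has a row in the counts under its symbol. The 2-fold calls of Srp54a and Srpra rest on the scaling. When the scale was set by all counts but those of EGFP_avitag and the mitochondrial genome, the median log2 ratio of all genes shifted by -0.24 and Srp14 was the 1 member past 2-fold, with Srp54a at 0.99 and Srpra at 0.83. Of all 11468 genes, 37.4% were then at least 2-fold higher, and the interval of Srp9 lay below 0 (-0.66 to -0.07).

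The genes that act before, beside and after SRP were also split. Over 31 measured genes of other steps of ER targeting, 15 (48.4%) passed 2-fold on the higher side with P180 and 0 on the lower side, beside 40.6% and 19.9% of all genes, with a median log2 ratio of 0.87. Of the 29 counted in each library with scaled counts averaging 100 or more, 14 were at least 2-fold higher, beside 21.5% of all such genes. Under the scaling just named, Sgta, Sec11c and Rpn1, described below, did not reach 2-fold. This left 12 of the 31 genes at least 2-fold higher, beside 37.4% of all genes. The lists are described by counts and medians only.

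Before targeting, the nascent polypeptide-associated complex sits at the ribosome exit and limits the access of SRP to chains without a signal. Naca, its alpha subunit, had 569 counts with P180 against 261 with GFP alone, a log2 ratio of 1.61 (1.39 to 1.82). The beta subunit Btf3 stood at 0.71 (0.21 to 1.22) and its paralog Btf3l4 at 0.42 (0.11 to 0.74), so 1 of 3 passed 2-fold. The interval of Naca lay above those of both others.

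Beside SRP, the GET pathway inserts tail-anchored proteins after translation, and 3 of its 6 measured genes were at least 2-fold higher. Camlg, a membrane subunit of the GET receptor, had 516 counts with P180 against 109 with GFP alone, a log2 ratio of 2.73 (2.42 to 3.04). Get1, the other subunit of that receptor, stood at -0.59 (-0.73 to -0.46), with 689 counts against 1452. The cytosolic chaperones Bag6 (1.33) and Sgta (1.05, 0.95 to 1.16) were past 2-fold, the targeting ATPase Get3 (0.37, 0.25 to 0.49) was not, and Ubl4a had 0 counts in both libraries. Tmem208, the counterpart of a yeast protein of the SND route, stood at 0.83 (0.69 to 0.97).

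After SRP, the translocon and its partners had 7 of 12 genes at least 2-fold higher. Tram1, a membrane protein beside the channel, had a log2 ratio of 2.04 (1.92 to 2.16), the TRAP subunit Ssr4 1.80 (1.56 to 2.05), Sec61b 1.63 (1.28 to 2.00), the Hsp40-type partner Sec63 1.61 (1.43 to 1.80), Sec61a1 1.51 (1.39 to 1.63) and Sec61a2 1.24 (1.17 to 1.30). Tram2, with 19 counts with P180 and 0 with GFP alone, was at least 8.85-fold higher against a floor of 3 counts for the GFP library. Among the abundant genes that stayed under 2-fold were Sec62 (0.71, 0.62 to 0.79) and the TRAP subunit Ssr3 (-0.00, -0.09 to 0.09). In all, 5 of the 12 stayed within 2-fold.

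Of 6 genes for cleaving signal peptides and their remnants, 3 were at least 2-fold higher. These were Spcs1, a non-catalytic subunit of signal peptidase (log2 ratio 1.80, 1.57 to 2.03), Hm13, the signal peptide peptidase (1.65, 1.58 to 1.72), and Sec11c, a catalytic subunit (1.04, 0.83 to 1.25). Spcs2 (0.21, 0.11 to 0.32) and the second catalytic subunit Sec11a (-0.12, -0.25 to 0.00) were not. Of the other ER proteins that have been proposed to hold ribosomes, Rpn1 stood at 1.13 (1.06 to 1.20), Lrrc59 at 0.09 (-0.01 to 0.18) and Ktn1 at -0.63 (-0.78 to -0.48).

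**Figure D4:**
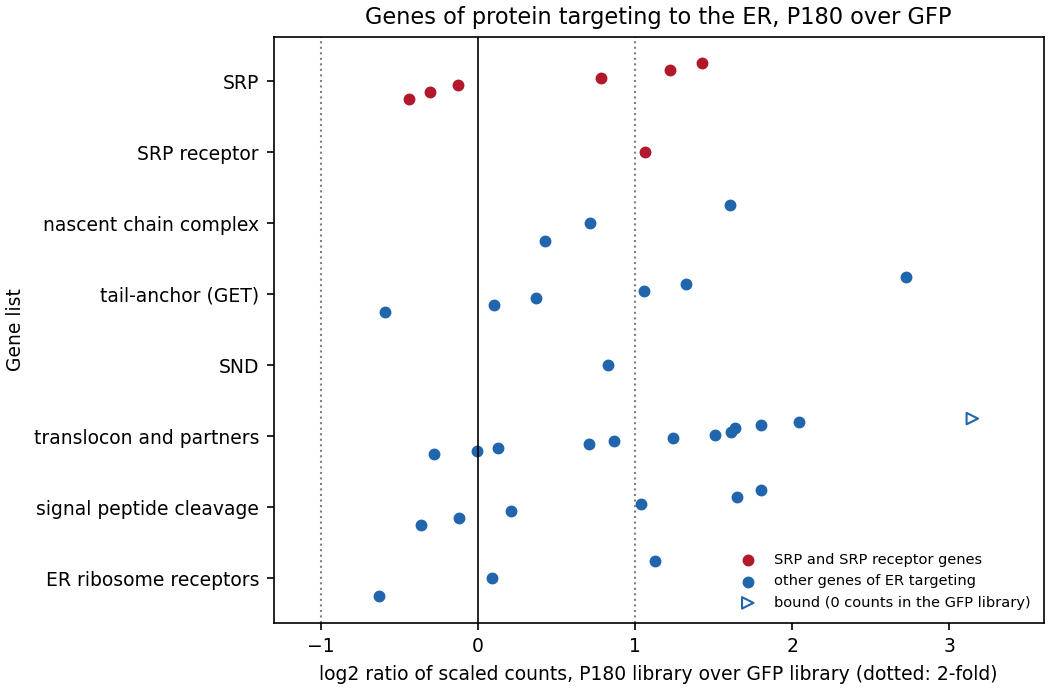
Log2 ratio of scaled counts, P180 library over GFP library, for each gene with at least 10 counts in 8 lists of ER targeting, 1 point a gene, with dotted lines at 2-fold and an open mark for Tram2, a bound. The 6 SRP genes fall on both sides of 0, as do the GET, translocon and signal peptide genes, and no gene lies past 2-fold on the lower side.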

How the data were processed

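The authors deposited raw counts per gene. By the methods of the study, adapted CEL-Seq2 libraries, which read the 3' ends of mRNAs, were demultiplexed, read 2 was aligned to mRatBN7 and counted with STARSolo 2.7.10a, also named in the submitters' processing notes, and reads fitting several places equally well were discarded. Neither the annotation release nor whether copies were collapsed by molecular identifier is stated, and uncollapsed copies would make the intervals too narrow. The table's 2 further columns of counts are named as second libraries of the same constructs but match the labels of no sample used here, so they entered no step, and each group was left with 1 library.

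A gene was kept if its counts in the pair of libraries summed to 10 or more. The 92 spike-in rows were left out, and each library was scaled by its median-of-ratios size factor. Ratio intervals are Clopper-Pearson intervals of the share of a gene's counts in the P180 library, and pair differences have exact conditional odds-ratio intervals. A 0 was set to 3 counts for a bound. The study's DESeq2 fit needs replicates and was not repeated on 1 library a group. Members were named by rule, and of each list the 3 genes with the highest mean and all past 2-fold. Members and lists were chosen with earlier results of these data known. Symbols of 7 of 7 members were matched to RefSeq. Only the ratio step was tested on simulated Poisson counts. Its interval held the true ratio for 91% of genes raised 4-fold and 95.6% of unchanged genes. Alternatives covered scaling, filters, depth, floor, added count and threshold. Python 3.11.15, numpy 2.4.6, pandas 2.3.3, scipy 1.17.1, matplotlib 3.10.9, R 4.3.3 and edgeR 4.0.16 (TMM factors only) were used.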

Additional observations from a re-analysis of the deposited data

How the results depend on the processing

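Scaling shifts all genes alike, and neither the floor nor the stricter filter can change a member's ratio, so these settings bear on few results. The order of members is therefore no measure of stability. The signs of the 7 log2 ratios (4 above and 3 below 0) can change with the scale, but stayed the same. The other scalings tried moved the ratios downward only, with a shift of at most -0.24 in the median of all genes. They could thus not bring a lower gene above 0. The median over members lay between 0.54 and 0.79. The number of members at least 2-fold higher, 3, became 1 when the scale came from all counts but those of EGFP_avitag and the mitochondrial genome, and 1 when the whole counting interval had to lie past 2-fold. It was within 1.5 times of 3 under total counts, TMM factors, size factors computed without the tag, both other filters, the thinned GFP library, a floor of 1 count and a 1.5-fold threshold. The gap between the highest and the lowest member was 1.86 on the log2 scale and 1.83 after thinning. Of 116 further values for single members and lists, 112 changed by less than the counting interval or 1.5 times, and 4 by more, among them Srp72, at -0.54 when the mitochondrial and tag counts were left out of the scale. No paired analysis was possible because 1 library a group was used and the groups share a single replicate number, and for the same reason no library could be left out. With 73 to 666 counts a member and library, smaller differences between members, those whose interval held 0, were not told apart.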
